A study of Mus musculus with 24 samples.

Results

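The genes described here encode proteins that coat lipid droplets, build the triglyceride stored in them or release fatty acids from it. The set held 10 genes, *Plin2*, *Cidec*, *Hilpda*, *G0s2*, *Pnpla2*, *Lipe*, *Mgll*, *Dgat1*, *Dgat2* and *Angptl4*. Its members were all probe sets of the expression array to which the platform annotation assigned a member's symbol and no other, which gave 18 of 45037 probe sets and 10 of 18193 genes. The measured values played no part in assigning probe sets to genes, but the 10 genes were chosen with earlier results of these data known. Expression was measured in macrophages grown for 10 days from mouse bone marrow, with 1 array per culture and 24 arrays in all. The marrow came from 3 Stat6 knockout (KO) mice (mice 4, 5 and 6) and 3 wild-type (WT) C57Bl/6 mice (mice 1, 2 and 3). The study's text names no strain for the KO mice.

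Each mouse gave 4 cultures, so that the 8 groups held 3 arrays each: IL-4 with rosiglitazone (RSG), IL-4 with vehicle, no IL-4 with RSG, and no IL-4 with vehicle, in KO and in WT cells. All cultures, controls included, received M-CSF at 20 ng/ml. IL-4 was given at 20 ng/ml and RSG, a synthetic agonist of the nuclear receptor PPARγ, at 1 µM in DMSO:ethanol. The KO mice came from a commercial colony and carried the null allele in all their cells, and the labels give neither the age nor the sex of the animals. The series addressed whether IL-4, acting through STAT6, changes the response of macrophages to a PPARγ agonist.

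A lipid droplet is a core of triglyceride and steryl ester under a monolayer of phospholipid and coat proteins. Triglyceride is made from diacylglycerol by DGAT1 and DGAT2 and is broken down in turn by adipose triglyceride lipase (PNPLA2), hormone-sensitive lipase (LIPE) and monoacylglycerol lipase (MGLL), while G0S2 and HILPDA inhibit the first of these enzymes. Macrophages store lipid in droplets coated mainly by perilipin 2 (PLIN2), and foam cells are macrophages filled with them. IL-4 acts through STAT6 to drive alternative activation of macrophages, and PPARγ is a fatty acid-activated transcription factor whose known targets include *Angptl4* and *Plin2*.

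Values are given as log2 of the deposited ratio, which sets a probe set against its own median over the arrays, so that levels cannot be compared between genes. The median ratio was 1, and 0 on the log2 scale is thus the median, in 38889 of 45037 probe sets and in all those of the members but that of *Cidec*, whose median ratio was 0.712. A gene was read from its probe set with the lowest number, here its lead probe set, and changes are log2 differences between group means ± SE from limma, with 3 arrays per group. A gene was called at a Benjamini-Hochberg adjusted p under 0.05 over 45037 probe sets and a change of at least 1.5-fold. In bulk RNA, fewer cells of a type and less RNA per cell cannot be told apart.

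*Stat6* separated the genotypes on every array, at -2.03 to -1.56 in the 12 KO arrays and 0.73 to 1.15 in the 12 WT arrays. *Pparg* was raised by IL-4 in WT cells (2.43 ± 0.24, adjusted p = 1.2e-06), while in KO cells its change was 0.51 ± 0.24 (adjusted p = 0.19). Markers of other cell types stood apart in the KO cultures with IL-4. Of the neutrophil and granule precursor list, 9 of 9 genes were called higher with IL-4 in KO cells, and the arrays' list means were 3.23 to 3.58 with IL-4 and -0.30 to 0.39 without it. The mast cell and basophil list had 8 of 8 genes called higher (list means 5.39 to 5.84 with IL-4 and -1.56 to -0.55 without it), and the lymphocyte list 7 of 7 (3.82 to 4.25 and -2.02 to -1.32). In WT cells with IL-4 the neutrophil list instead had 8 of 9 genes called lower, with list means of -4.78 to -3.97, against -0.62 to 0.72 without IL-4. On the WT arrays the means of the macrophage list were -0.63 to -0.39 with IL-4 and RSG and -0.36 to -0.26 with IL-4 and vehicle, against 0.04 to 0.15 with RSG alone and 0.10 to 0.19 with vehicle alone, so that the IL-4 arrays all lay lower. On the KO arrays they were -0.21 to 0.11. IL-4 without RSG raised 1 of its 8 genes and lowered 2, in KO and in WT cells alike by count. Ratios to a median have no true zero, so that absence of a marker could not be read from them. The part of these cells in the changes below was not tested.

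Of the 10 genes, 7 had a RefSeq promoter entry (GRCm38.p6), with 11 start sites in all, and *Angptl4*, *Dgat1* and *Dgat2* had none. The promoters of the genes that rose with IL-4 in WT cells are shown, as the 250 bases before the start site on the gene's own strand, 5′ to 3′. Of the start sites listed for *Hilpda* and *Mgll*, that with the most motif matches was taken. The *Hilpda* window shown thus holds a match by that choice, and the other *Hilpda* window held 0 matches to the motifs searched. Capitals mark matches, on either strand, to the nuclear receptor core AGGTCA or to ACGTG, the A form of the hypoxia element core. Other forms of that core were not searched for and are not marked.
Plin2 (chr4:86670060-86670309, minus strand): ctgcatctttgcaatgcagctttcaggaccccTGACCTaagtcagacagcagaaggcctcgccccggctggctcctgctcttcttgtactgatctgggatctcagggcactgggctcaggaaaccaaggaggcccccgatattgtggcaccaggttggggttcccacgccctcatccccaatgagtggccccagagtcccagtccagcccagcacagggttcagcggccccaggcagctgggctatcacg
Hilpda (chr6:29272376-29272625, plus strand): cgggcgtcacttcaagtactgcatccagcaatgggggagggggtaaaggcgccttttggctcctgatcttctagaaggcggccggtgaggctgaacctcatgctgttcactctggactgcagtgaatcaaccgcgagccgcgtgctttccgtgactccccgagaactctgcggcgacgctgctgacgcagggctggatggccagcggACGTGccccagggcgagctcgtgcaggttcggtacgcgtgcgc
Mgll (chr6:88724162-88724411, plus strand): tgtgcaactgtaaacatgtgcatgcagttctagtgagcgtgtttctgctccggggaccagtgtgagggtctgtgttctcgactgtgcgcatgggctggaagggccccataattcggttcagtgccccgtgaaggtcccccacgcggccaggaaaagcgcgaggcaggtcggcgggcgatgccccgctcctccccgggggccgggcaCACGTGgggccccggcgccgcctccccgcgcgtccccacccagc
AGGTCA was found in 1 of the 11 promoters, that of *Plin2*, and in 14% of all 32851 promoters of this length. ACGTG was found in 4 of the 11, in *Hilpda*, *Lipe* and both *Mgll* windows, and in 16.6% of all. The palindrome TTCNNNNGAA, the spacing that STAT6 prefers, was found in 1 of the 11 (*Cidec*) and in 5.85% of all, and TTCNNNGAA in 0 of the 11 and 7.02% of all. The direct repeat of AGGTCA with 1 base between, the usual element of PPARγ with its partner RXR, was found in 0 of the 11 and 0.0335% of all. On the first *Mgll* window and in *Lipe* the ACGTG matches of the 2 strands overlap within the palindrome CACGTG. The *Mgll* window shown was taken over the other, with 1 match, because the palindrome counts on both strands. These matches are a description of the letters in the windows.

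In WT cells IL-4 raised *Hilpda*, *Mgll* and *Plin2*, and no member was called lower. These are 3 of 10 genes, where 14.4% of all genes were called in either direction and 7.91% were called higher. The median change over the 10 genes was 0.34, and over all genes 0.11.

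*Mgll*, whose product cuts the last fatty acid from glycerol, had the largest of the 3 changes. It stood at 2.25, 2.54 and 2.25 in WT cells with IL-4, against -0.60, -0.31 and 0.20 in WT cells without it, a change of 2.58 ± 0.23 (5.98-fold, adjusted p = 3.4e-07). All 3 mice moved up and the groups were far apart. In KO cells *Mgll* read -0.59, -0.30 and -0.53 with IL-4, against -0.66, -0.21 and -0.24 without it. The KO groups overlapped, with a change of -0.11 ± 0.23 and a 95% interval of -0.60 to 0.38. The response differed between genotypes, by -2.69 ± 0.33 (KO minus WT, adjusted p = 1.8e-05). Of the other 3 probe sets of *Mgll*, 2 followed the lead probe set with correlations of 0.997 and 0.998 over the 24 arrays and gave 2.70 and 2.72 for the IL-4 response in WT cells. The last of them correlated at 0.425, had a within-group SD of 1.29 and was called in no comparison.

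*Hilpda*, the hypoxia-inducible inhibitor of PNPLA2, read 1.55, 1.80 and 2.36 in WT cells with IL-4, against 0.05, -0.22 and -0.45 in WT cells without it. Every IL-4 array lay above every control array (2.11 ± 0.22, 4.32-fold, adjusted p = 2.2e-06). In KO cells it read -0.05, 0.08 and 0.38 with IL-4, against -0.39, -0.61 and -0.49 without it. The KO groups did not overlap either, but the change of 0.63 ± 0.22 missed the threshold (adjusted p = 0.068, 0.019 to 0.30 over 15 alternatives, 3 of which called it). The response was smaller in KO cells by 1.48 on the log2 scale, a difference of -1.48 ± 0.31 (adjusted p = 0.0031).

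*Plin2*, the droplet coat protein, changed least of the 3 and with little scatter, its within-group SD of 0.139 lying at the 9.3 percentile of all probe sets. It read 0.56, 0.62 and 0.66 in WT cells with IL-4, against -0.19, -0.34 and -0.34 without it (0.90 ± 0.13, 1.87-fold, adjusted p = 7.8e-05). In KO cells it read -0.26, -0.04 and -0.17 with IL-4, against -0.48, -0.31 and -0.32 without it, a change of 0.22 ± 0.13 (adjusted p = 0.32). The genotype difference in the response was -0.68 ± 0.18 (adjusted p = 0.017). That call was lost without mouse 2 (-0.65, adjusted p = 0.10), mouse 3 (-0.63, adjusted p = 0.095) or mouse 5 (-0.71, adjusted p = 0.066), after quantile normalization (-0.39, adjusted p = 0.23) and with centred arrays (-0.51, adjusted p = 0.031, under 1.5-fold), and its adjusted p was 0.0094 to 0.23 over 14 alternatives.

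**Figure D1:**
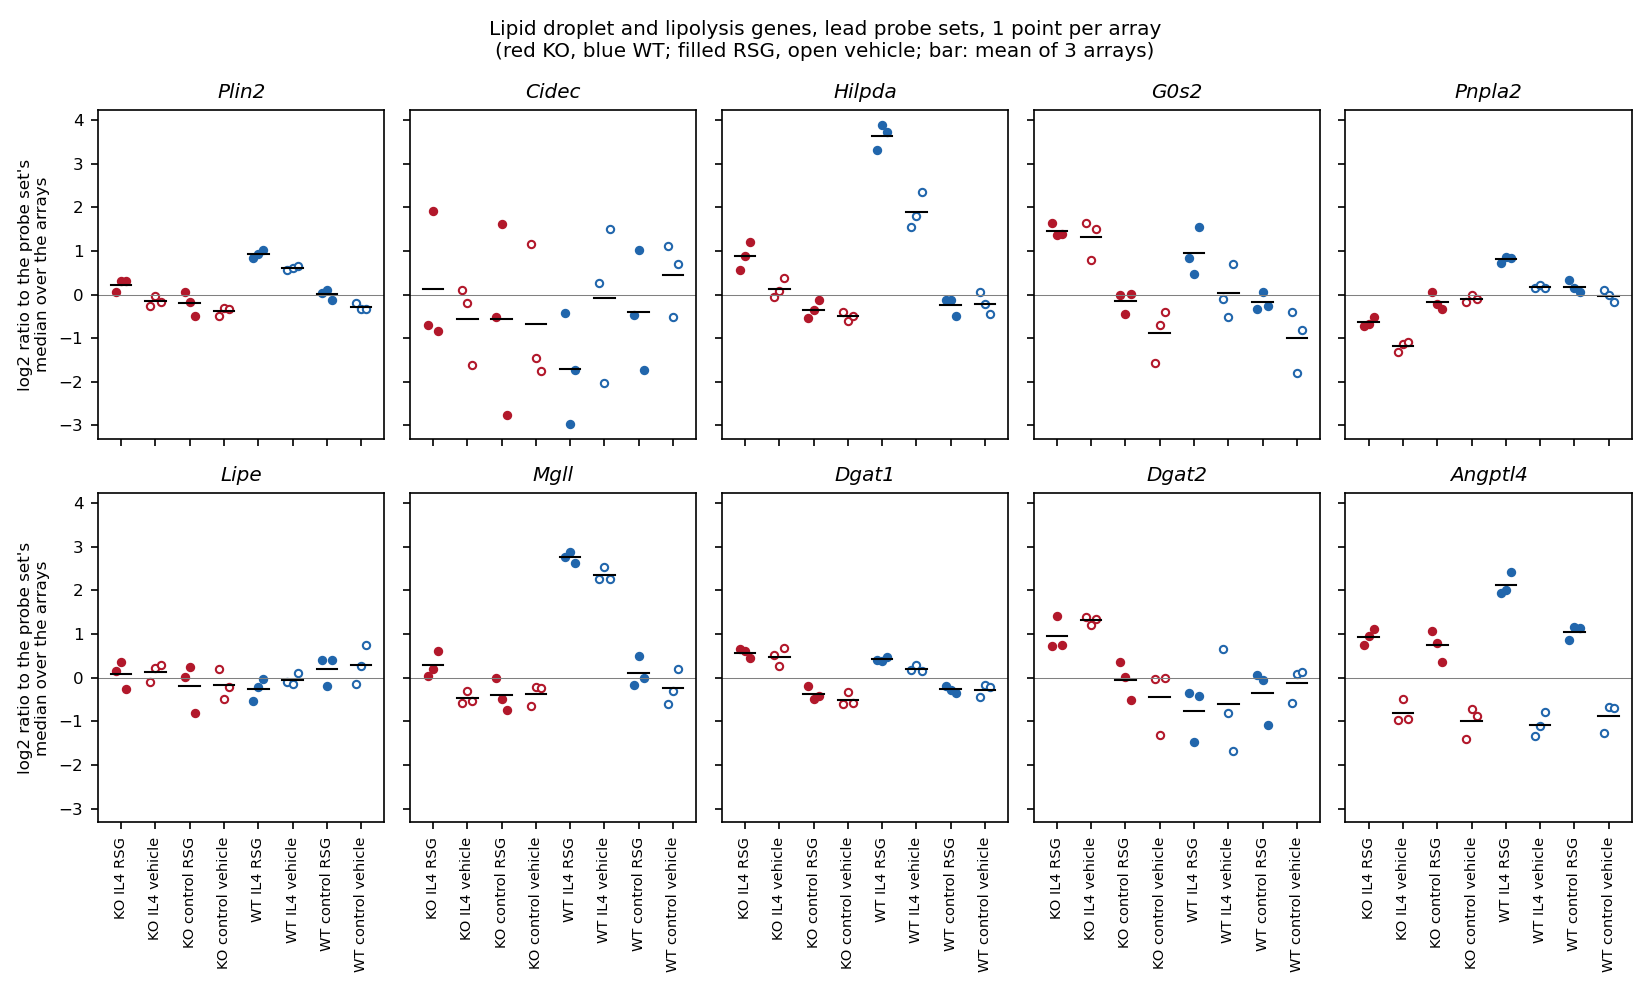
The log2 ratio (y axis) of each array in the 8 groups (x axis), 1 panel per gene, with KO in red, WT in blue, RSG filled, vehicle open and bars at the means of 3 arrays. *Hilpda* and *Mgll* stand highest in the WT groups with IL-4, at 1.55 to 3.88 and 2.25 to 2.89, *Angptl4* is raised in every RSG group, and *Cidec* scatters within all groups.

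In KO cells IL-4 raised *G0s2*, *Dgat2* and *Dgat1* and lowered *Pnpla2*, 4 of 10 genes. Over all genes 13.6% were called in either direction, 5.31% higher and 8.31% lower. The median change over the 10 genes was 0.26, and over all genes -0.16. Neutrophil, mast cell and lymphocyte markers were higher in the same arrays, with the values given above.

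*Pnpla2*, the lipase of the first step, read -1.32, -1.14 and -1.08 in KO cells with IL-4, against -0.17, 0.00 and -0.11 without it. The groups lay well apart, and it fell by 1.08 on the log2 scale (-1.08 ± 0.12, adjusted p = 6.4e-06). In WT cells it read 0.16, 0.22 and 0.14 with IL-4, against 0.11, 0.00 and -0.18 without it (0.19 ± 0.12, adjusted p = 0.32). The genotype difference in the response was -1.28 ± 0.17 (adjusted p = 4.0e-05). A second probe set of *Pnpla2* did not show the same pattern, with a correlation of 0.443 over the 24 arrays. It read -0.37, 0.28 and -0.27 in KO cells with IL-4, against -0.37, -0.10 and -0.26 without it, a change of 0.12 that was not called (adjusted p = 0.85). In WT cells this second probe set read 0.72, 0.74 and 0.03 with IL-4, against -1.0, -1.08 and -1.0 without it, and was called higher (1.52 ± 0.27, adjusted p = 5.4e-04). The 2 probe sets agreed in the sign and the call of the genotype difference (-1.40 ± 0.38 in the second, adjusted p = 0.017), but not in which genotype moved.

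*G0s2*, the other inhibitor of PNPLA2, read 1.65, 0.79 and 1.5 in KO cells with IL-4, against -1.57, -0.70 and -0.39 without it. All 3 mice moved up (2.20 ± 0.39, 4.59-fold, adjusted p = 7.0e-04). In WT cells it read -0.10, -0.52 and 0.70 with IL-4, against -0.39, -1.79 and -0.82 without it, where the groups overlapped although all 3 mice moved up (1.02 ± 0.39, adjusted p = 0.087). The genotype difference of 1.18 ± 0.55 was not called (adjusted p = 0.18, 95% interval 0.01 to 2.34).

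*Dgat1* and *Dgat2* encode unrelated enzymes for the last step of triglyceride synthesis. *Dgat1* read 0.51, 0.26 and 0.68 in KO cells with IL-4, against -0.60, -0.33 and -0.58 without it (0.99 ± 0.13, adjusted p = 2.8e-05). In WT cells it read 0.17, 0.28 and 0.15 with IL-4, against -0.45, -0.17 and -0.22 without it. The WT groups did not overlap, and the change of 0.48 ± 0.13 (adjusted p = 0.011) passed the p threshold but not 1.5-fold. The genotype difference for *Dgat1*, 0.51 ± 0.18, was not called (adjusted p = 0.063).

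*Dgat2* read 1.40, 1.20 and 1.35 in KO cells with IL-4, against -0.04, -1.31 and -0.01 without it (1.77 ± 0.51, adjusted p = 0.023). In WT cells it read 0.65, -0.80 and -1.69 with IL-4, against -0.57, 0.09 and 0.13 without it, and these groups overlapped (-0.50 ± 0.51). The call in KO cells was lost without mouse 4 (1.93, adjusted p = 0.094), mouse 5 (1.39, adjusted p = 0.22) or mouse 6 (1.97, adjusted p = 0.089), with an adjusted p of 0.011 to 0.22 over 15 alternatives. The second probe set of *Dgat2* was called too, at 1.39 ± 0.28 (adjusted p = 0.0018). The genotype difference was 2.26 ± 0.72 (adjusted p = 0.040) in the lead probe set and 1.51 ± 0.39 (adjusted p = 0.012) in the second. In the lead probe set that call was lost with the mouse as a block (2.26, adjusted p = 0.055). It was also lost without the WT vehicle control of mouse 3 (2.14, adjusted p = 0.087) and without the 2 arrays with the most stromal markers, the WT vehicle control of mouse 2 and the KO control with RSG of mouse 6 (2.16, adjusted p = 0.087). Of the mice, it held without mouse 1 but was lost without mouse 2 (2.06, adjusted p = 0.15), mouse 3 (1.60, adjusted p = 0.19), mouse 4 (2.43, adjusted p = 0.091), mouse 5 (1.89, adjusted p = 0.17) or mouse 6 (2.47, adjusted p = 0.090).

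*Lipe*, the hormone-sensitive lipase, and *Cidec*, which promotes droplet fusion in fat cells, were called in none of the 16 comparisons by limma. *Lipe* stayed between -0.81 and 0.75 on all arrays, and its IL-4 response had a 95% interval of -0.29 to 0.90 in KO cells and -0.93 to 0.26 in WT cells. *Cidec* ranged from -2.97 to 1.91 with a within-group SD of 1.5, at the 93.3 percentile of all probe sets, so that its intervals were wide (-2.38 to 2.59 in KO cells and -3.01 to 1.96 in WT cells). The second probe set of *Lipe* scattered as much (SD 1.57) and correlated with the first at 0.303. *Angptl4* was not called for IL-4 alone, at 0.20 ± 0.24 in KO cells and -0.21 ± 0.24 in WT cells.

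Over the 10 genes, the IL-4 response differed between genotypes in 5, with *Mgll*, *Hilpda*, *Pnpla2* and *Plin2* lower and *Dgat2* higher in KO minus WT. Over all genes 17% were called in this comparison, 5.53% higher and 11.4% lower. Without mouse 2 or mouse 3 the count was 3 of 10, and the share of all genes called without them is not given here. With centred arrays 3 were lower and 2 higher, with *Dgat1* called (0.67) and *Plin2* (-0.51) under 1.5-fold.

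**Figure D2:**
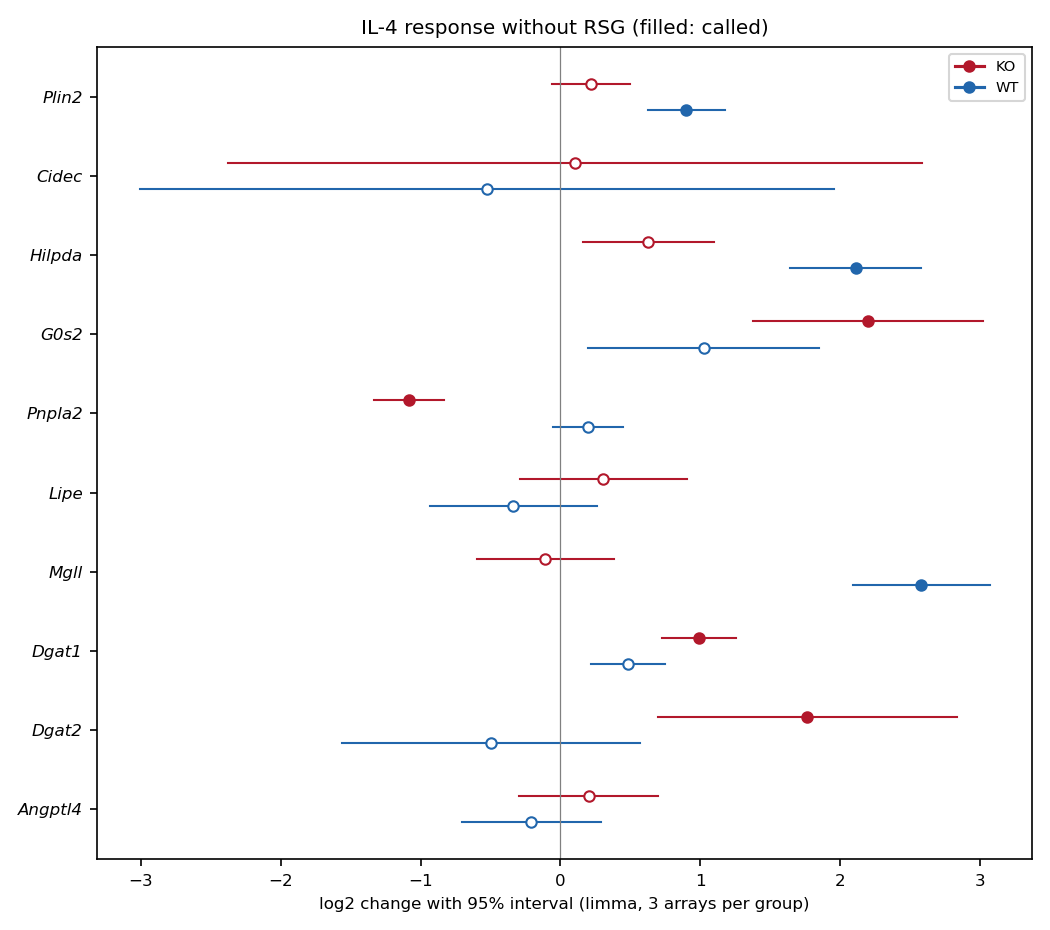
The IL-4 response without RSG (x axis, log2 change with 95% interval, 3 arrays per group) of each gene (y axis) in KO cells (red, upper) and WT cells (blue, lower), filled where called. *Mgll*, *Hilpda* and *Plin2* are filled in WT cells, at 2.58, 2.11 and 0.90, and *G0s2*, *Dgat2*, *Dgat1* and *Pnpla2* in KO cells, at 2.20, 1.77, 0.99 and -1.08.

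RSG raised *Angptl4* in both genotypes, with and without IL-4. ANGPTL4 is a secreted inhibitor of lipoprotein lipase and so of the uptake of fatty acids from lipoproteins. Few genes were called for RSG. Without IL-4 the lead probe sets gave 1 of 10 members called in KO cells, *Angptl4*, where 0.22% of all genes were called and 0.11% called higher. They gave 1 of 10 in WT cells, again *Angptl4*, where 0.17% were called and 0.0605% called higher.

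In KO cells without IL-4 *Angptl4* read 1.07, 0.80 and 0.36 with RSG, against -1.40, -0.72 and -0.88 with vehicle (1.74 ± 0.24, 3.35-fold, adjusted p = 0.0035). In WT cells without IL-4 it read 0.87, 1.17 and 1.13 with RSG, against -1.26, -0.67 and -0.70 with vehicle (1.93 ± 0.24, 3.81-fold, adjusted p = 0.0034). Every RSG array lay above every vehicle array. The call in KO cells was lost without mouse 4 (1.38, adjusted p = 0.092) or mouse 5 (1.86, adjusted p = 0.059), and that in WT cells without mouse 1 (1.83, adjusted p = 0.084) or mouse 2 (1.98, adjusted p = 0.090). The stromal list stood at 1.05 to 3.83 in the KO controls with RSG, against -0.44 to 0.22 with vehicle, and the KO change was called without the array that stood highest, that of mouse 6.

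With IL-4, RSG raised 1 of 10 members in KO cells (0.737% of all genes were called, 0.181% higher) and 3 of 10 in WT cells, where 0.918% of all genes were called and 0.434% were called higher. *Angptl4* read 0.74, 0.95 and 1.12 in KO cells with IL-4 and RSG, against -0.97, -0.48 and -0.95 with IL-4 and vehicle (1.73 ± 0.24, 3.32-fold, adjusted p = 6.7e-04). In WT cells it read 1.94, 2.01 and 2.42 with IL-4 and RSG, against -1.34, -1.11 and -0.79 with IL-4 and vehicle (3.20 ± 0.24, 9.22-fold, adjusted p = 2.3e-06). The WT cells with both agents were the highest of the 8 groups and overlapped no other. A rise as large or larger was seen for 0.102% of probe sets. The call in KO cells was lost without mouse 6 (1.57, adjusted p = 0.055).

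The difference between these responses did not pass the test. The RSG response with IL-4 was lower in KO than in WT cells by 1.47 on the log2 scale (-1.47 ± 0.33, 95% interval -2.17 to -0.77, adjusted p = 0.075, 0.036 to 0.36 over 14 alternatives), and centring each array on its median made it a call. Within WT cells the RSG response was 1.27 ± 0.33 larger with IL-4 than without (95% interval 0.57 to 1.97, adjusted p = 0.32), and within KO cells it differed by -0.01 ± 0.33 (95% interval -0.71 to 0.69). With limma 0 of 10 members were called in each of these 3 differences, where 0.506%, 0.0385% and 0.115% of all genes were called. At an unadjusted limma p under 0.05 there were 2, 3 and 2 of 10 members, against 7.82%, 6.27% and 8.45% of all genes. With RSG, *Angptl4* was higher with IL-4 than without in WT cells (1.07 ± 0.24, adjusted p = 0.0033), a call lost without mouse 3 (0.95, adjusted p = 0.052), while in KO cells its change was 0.19 ± 0.24 (adjusted p = 0.73). The second probe set of *Angptl4* correlated with the first at 0.821 and was called for RSG in WT cells with IL-4 (3.09 ± 0.56, adjusted p = 0.0099) and in no other comparison.

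*Hilpda* joined *Angptl4* in WT cells with IL-4. It read 3.31, 3.88 and 3.72 with IL-4 and RSG, against 1.55, 1.80 and 2.36 with IL-4 and vehicle (1.73 ± 0.22, 3.32-fold, adjusted p = 6.0e-04), and the call was lost without mouse 2 (1.56, adjusted p = 0.052). In WT cells without IL-4 it read -0.12, -0.12 and -0.49 with RSG, against 0.05, -0.22 and -0.45 with vehicle, and the groups overlapped (-0.04 ± 0.22). The difference between these responses, 1.77 ± 0.32 (95% interval 1.11 to 2.44), had an adjusted p of 0.075 (0.038 to 0.52 over 14 alternatives) and was called only with centred arrays. In KO cells with IL-4 it read 0.56, 0.88 and 1.21 with RSG, against -0.05, 0.08 and 0.38 with vehicle, where the groups did not overlap but the change was not called (0.75 ± 0.22, adjusted p = 0.22).

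*Pnpla2* was the third member called for RSG in WT cells with IL-4, reading 0.73, 0.87 and 0.83 with RSG, against 0.16, 0.22 and 0.14 with vehicle (0.64 ± 0.12, 1.55-fold, adjusted p = 0.014). The call was lost without mouse 1 (0.67, adjusted p = 0.12), mouse 2 (0.63, adjusted p = 0.21), mouse 3 (0.61, adjusted p = 0.14) or mouse 5 (0.64, adjusted p = 0.062), and the second probe set gave 0.11 (adjusted p = 0.97). In WT cells without IL-4 the second probe set read 0.47, 0.37 and 0.20 with RSG, against -1.0, -1.08 and -1.0 with vehicle. Its RSG arrays there all lay above its vehicle arrays. The lead probe set read 0.33, 0.15 and 0.07, against 0.11, 0.00 and -0.18, and these groups overlapped. In KO cells with IL-4 the lead probe set read -0.73, -0.67 and -0.52 with RSG, against -1.32, -1.14 and -1.08 with vehicle (0.54 ± 0.12, adjusted p = 0.052). *Plin2*, a known PPARγ target, changed by 0.39 ± 0.13 in KO and 0.31 ± 0.13 in WT cells with IL-4, and by 0.18 ± 0.13 in KO and 0.30 ± 0.13 in WT cells without it, and none of these was called. The methods' t-test and limma on the compared arrays alone called 0 of 10 members in each of the 4 RSG comparisons. The t-test also called 0 of the 36 related genes described below in each of them. The share of all genes called by these 2 fits is not given here, so that the counts of 0 cannot be read as particular to the members.

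**Figure D3:**
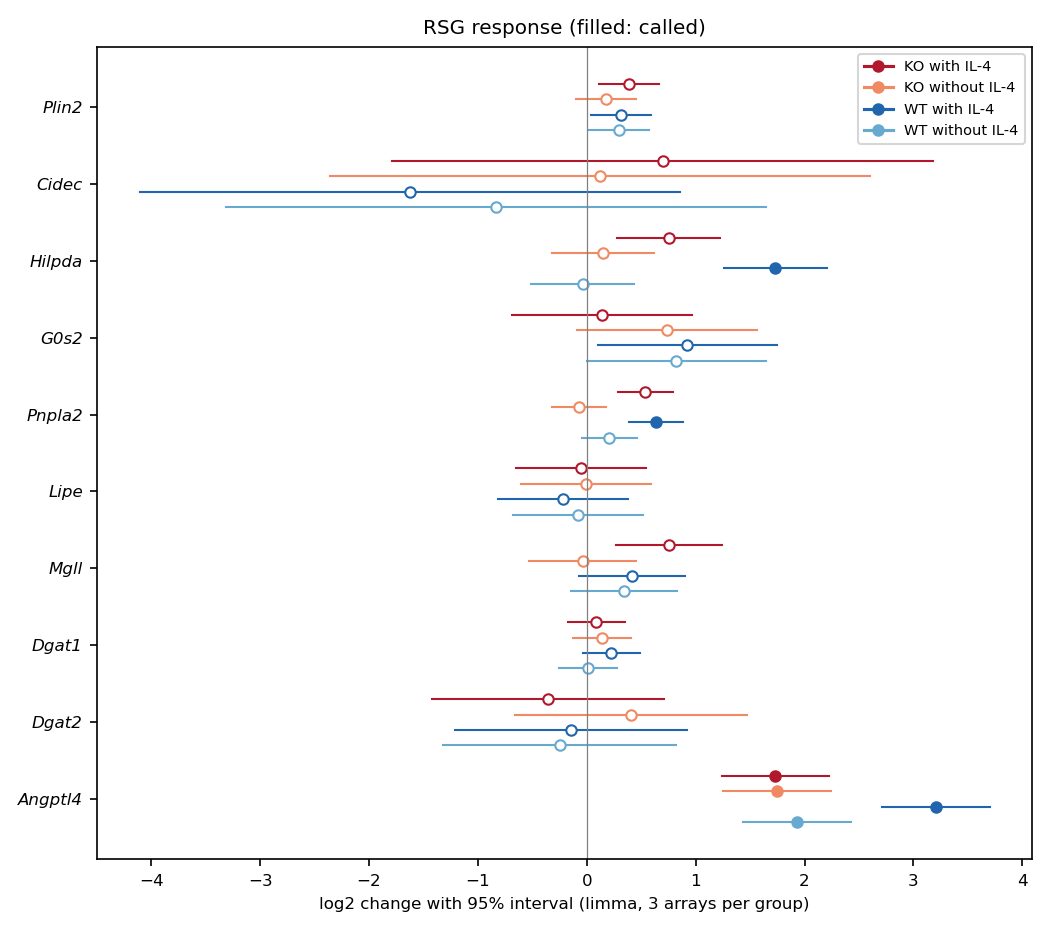
The RSG response (x axis, log2 change with 95% interval, 3 arrays per group) of each gene (y axis) in KO and WT cells with and without IL-4, filled where called. *Angptl4* is filled in all 4 settings, at 1.73, 1.74, 3.20 and 1.93, and *Hilpda* and *Pnpla2* in WT cells with IL-4 alone, at 1.73 and 0.64.

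Under RSG, IL-4 raised 3 of 10 members in KO cells (8.02% of all genes were called, 4.18% higher) and 6 of 10 in WT cells (14.6% of all genes were called, 9.12% higher). In WT cells these were *Hilpda* (3.88 ± 0.22, 14.8-fold), *Mgll* (2.65 ± 0.23), *Angptl4*, *Plin2* (0.92 ± 0.13), *Dgat1* (0.70 ± 0.13) and *Pnpla2* (0.62 ± 0.12). The change of *Hilpda* was among the largest on the array, with 0.286% of probe sets rising as much or more. *Mgll* read 2.77, 2.89 and 2.62 in WT cells with IL-4 and RSG, against -0.16, 0.49 and 0.00 with RSG alone. *Pnpla2* was lost in 6 of 16 settings. Its change fell under 1.5-fold without mouse 2 (0.58, adjusted p = 0.040) or mouse 3 (0.56, adjusted p = 0.030), after quantile normalization (0.47) and, narrowly, with centred arrays, which both left 5 of 10 members called. With the compared arrays alone its adjusted p was 0.061, and its second probe set gave 0.26 ± 0.27 (adjusted p = 0.61). The second probe set of *Dgat1* was not called here either (0.59 ± 0.28, adjusted p = 0.17, groups overlapping).

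In KO cells under RSG the called genes were *G0s2*, *Hilpda* and *Dgat1*. In the same comparison 9 of 9 neutrophil, 8 of 8 mast cell and 6 of 7 lymphocyte markers were called higher. The stromal list mean was -0.36 to -0.28 with IL-4 and RSG, against 1.05 to 3.83 with RSG alone, with 2 of 8 genes called lower and 1 higher. The part of these cells was not tested. *G0s2* read 1.63, 1.36 and 1.38 with IL-4 and RSG, against -0.01, -0.45 and 0.01 with RSG alone (1.60 ± 0.39, adjusted p = 0.015), and the call was lost without mouse 4 (1.59, adjusted p = 0.089), mouse 5 (1.5, adjusted p = 0.14) or mouse 6 (1.72, adjusted p = 0.070). *Hilpda* read 0.56, 0.88 and 1.21 with IL-4 and RSG, against -0.54, -0.36 and -0.13 with RSG alone (1.23 ± 0.22, adjusted p = 0.0018), a call lost without mouse 5 (1.22, adjusted p = 0.050). *Dgat1* changed by 0.94 ± 0.13 (adjusted p = 1.1e-04), and its second probe set by 2.13 ± 0.28 (adjusted p = 8.0e-05).

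No member was called between the genotypes without IL-4. With limma 0 of 10 members were called between KO and WT cells with vehicle (0.0934% of all genes were called) and 0 of 10 with RSG (0.0824%). At an unadjusted limma p under 0.05 there were 0 and 2 of 10 members, against 8.93% and 9.8% of all genes. The methods' t-test called 0 of 10 in both, and the share of all genes it called is not given here.

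With IL-4, KO cells were lower than WT cells in *Mgll* (-2.82 ± 0.23), *Hilpda* (-1.77 ± 0.22), *Pnpla2* (-1.35 ± 0.12) and *Plin2* (-0.77 ± 0.13) and higher in *Dgat2* (1.92 ± 0.51) and *G0s2* (1.29 ± 0.39), 6 of 10 members, where 26.3% of all genes were called, 7.08% higher and 19.2% lower. These comparisons share arrays with the responses above. The median change over all genes was -0.30 here, and centred on the arrays' medians the changes were -2.60 for *Mgll*, -1.56 for *Hilpda*, -1.13 for *Pnpla2*, -0.55 for *Plin2*, 2.14 for *Dgat2* and 1.5 for *G0s2*. *Plin2* then fell under 1.5-fold, as it did after quantile normalization (-0.47). The second probe set of *Pnpla2* was not called here (-0.62 ± 0.27, adjusted p = 0.10), and its groups overlapped. *Dgat2* was lost without mouse 3 (1.39, adjusted p = 0.054), and *G0s2* without mouse 1 (1.22, adjusted p = 0.066), mouse 2 (1.02, adjusted p = 0.059), mouse 4 (1.12, adjusted p = 0.078) or mouse 6 (1.19, adjusted p = 0.080).

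With IL-4 and RSG together 6 of 10 members were called (22% of all genes, 6.4% higher and 15.6% lower). *Hilpda* was lower in KO than in WT cells by 2.75 on the log2 scale (-2.75 ± 0.22), *Mgll* by 2.48 (-2.48 ± 0.23), *Pnpla2* by 1.45 (-1.45 ± 0.12), *Angptl4* by 1.19 (-1.19 ± 0.24, adjusted p = 8.8e-04) and *Plin2* by 0.69 (-0.69 ± 0.13). *Dgat2* was higher (1.71 ± 0.51, adjusted p = 0.017), a call lost without mouse 2 (1.35, adjusted p = 0.14), mouse 4 (1.83, adjusted p = 0.051) or mouse 5 (1.49, adjusted p = 0.087). *Plin2* was again under 1.5-fold with centred arrays (-0.52) and after quantile normalization (-0.47). *Dgat1* was not called between the genotypes by its lead probe set, with IL-4 (0.28 ± 0.13) or with both agents (0.14 ± 0.13), while its second probe set was called higher in KO cells in both (1.23 ± 0.28 and 1.08 ± 0.28). *Angptl4* kept its direction and call in all 15 alternatives of its lead probe set, at -1.28 to -1.01. Its second probe set was not called here, reading 1.10, 1.77 and 1.53 in KO cells, against 1.81, 2.05 and 1.96 in WT cells.

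Of 40 further genes listed for droplet assembly, triglyceride synthesis and lipolysis, 36 were measured. In WT cells 5 of 36 were called for IL-4, a share near the 14.4% of all genes. IL-4 raised 3, *Plin3* (0.79 ± 0.14), a perilipin, *Bscl2* (0.65 ± 0.16), which encodes the droplet assembly protein seipin, and *Lpl* (0.60 ± 0.11), and lowered *Lpin2* (-1.80 ± 0.37), a phosphatidate phosphatase, and *Abhd6* (-1.08 ± 0.28), a monoacylglycerol hydrolase. With centred arrays 2 of these 36 were higher and 3 lower, and after quantile normalization 1 and 3. In KO cells, where 8.31% of all genes were called lower and 5.31% higher, 8 of 36 were lower, *Acsl3* (-1.70 ± 0.32), an acyl-CoA synthetase of nascent droplets, *Lpin1* (-1.34 ± 0.25), *Pnpla7* (-1.17 ± 0.11), *Gpam* (-0.91 ± 0.14), which catalyses the first acylation of glycerol phosphate, *Agpat3* (-0.82 ± 0.14), *Lmf1* (-0.76 ± 0.18), *Nceh1* and *Plin3*, and 1 was higher, *Mogat2* (1.92 ± 0.53). *Plin3* was thus called in opposite directions, and its genotype difference was -1.39 ± 0.19 (adjusted p = 7.0e-05).

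With IL-4 16 of the 36 were lower in KO than in WT cells and 2 were higher, where 19.2% of all genes were lower and 7.08% higher. With IL-4 and RSG 13 were lower and 3 higher, against 15.6% and 6.4% of all genes. The largest called changes with IL-4 were *Mogat2* (2.72 ± 0.53), *Lpin2* (1.99 ± 0.37), *Plin3* (-1.51 ± 0.14), *Lpin1* (-1.38 ± 0.25), *Agpat3* (-1.36 ± 0.14) and *Bscl2* (-1.19 ± 0.16). The median of the 36 was -0.67, against -0.30 over all genes, and with centred arrays 9 were called lower and 3 higher, with a median of -0.45. The genotype difference in the IL-4 response was called for 13 of 36 (17% of all genes), with *Lpin2* higher and 12 lower, and with centred arrays 2 were higher and 9 lower. In the RSG comparisons *Abhd12*, a lysophospholipid lipase, was the only gene of the 36 called. It changed by 0.60 ± 0.11 in KO cells with IL-4 (adjusted p = 0.010) and by 0.59 ± 0.11 in WT cells without it (adjusted p = 0.041). With centred arrays 0 of the 36 were called in that KO comparison. In that WT comparison 0 were called with the mouse as a block, without the WT vehicle control of mouse 3, or without the 2 arrays with the most stromal markers.

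**Figure D4:**
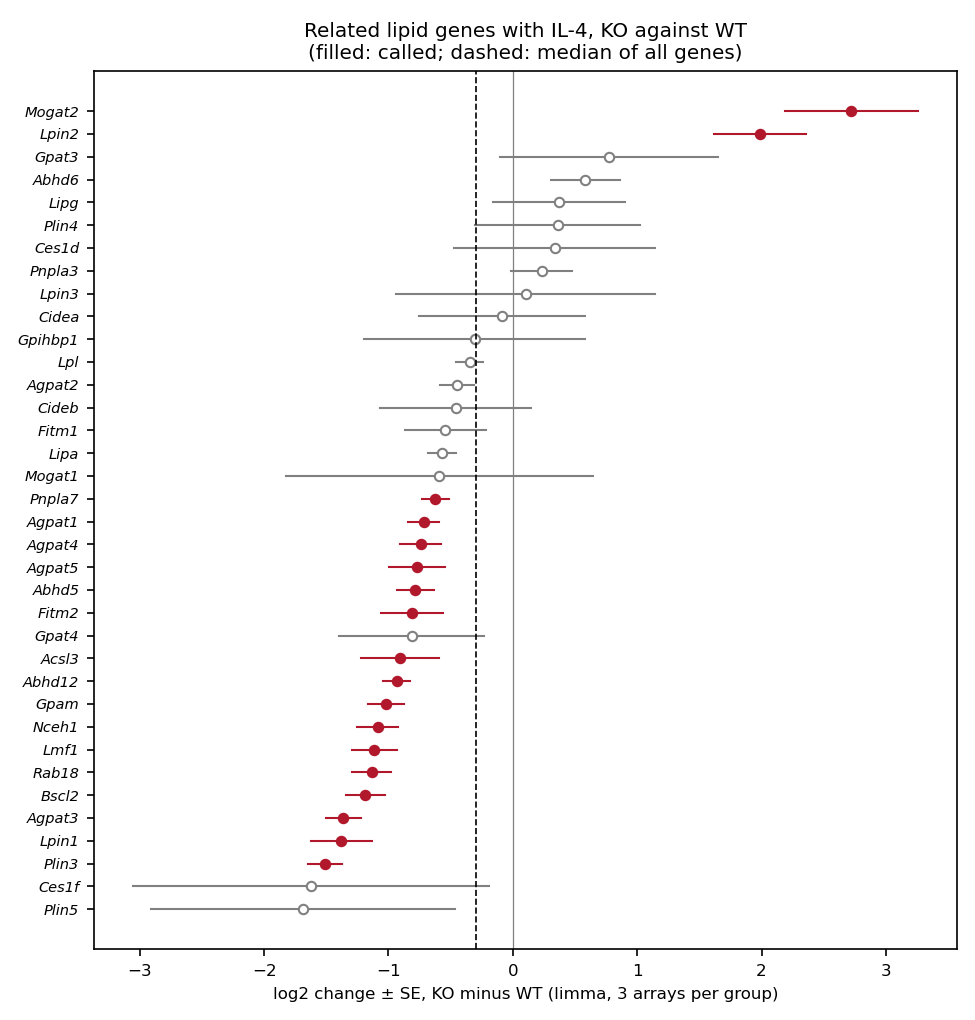
The change of each of the 36 related genes (y axis, sorted) between KO and WT cells with IL-4 (x axis, log2 change ± SE, KO minus WT, 3 arrays per group), filled where called, with the median of all genes dashed at -0.30. Of the filled points 16 lie below 0 and 2, *Mogat2* and *Lpin2*, above it.

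Fat cell markers gave 5 of 7 genes measured, with list means of -1.65 to 0.75 over all arrays. IL-4 without RSG raised *Adipoq* (2.38 ± 0.77, adjusted p = 0.041) and lowered *Retn* (-2.78 ± 0.72, adjusted p = 0.012) in WT cells, both secreted hormones of fat cells in mice. The genes most like *Angptl4* over the 8 group means, among 11653 genes whose group means spanned at least 2-fold, were *Mdh1* (r = 0.972), *1110015O18Rik* (0.935) and *Nlrp4f* (0.934). Those most like *Plin2* were *Kcnq3* (0.993), *Ralgds* (0.993) and *Syncrip* (0.992), and those most like *Mgll* were *Tpcn2* (0.997), *Pex11g* (0.991) and *Inpp5j* (0.991). These are correlations over 8 means of the same 24 arrays, given as a description.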

How the data were processed

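Total RNA of 24 macrophage cultures was hybridized to Affymetrix mouse genome expression arrays. Per the methods, the authors summarized the arrays by GC-RMA in GeneSpring, brought each array to its 50th percentile, then set every probe set against its own median across the experiment (the submitters' notes name GCOS and GCRMA). The deposited values are linear ratios, with a median of 1 (within 0.001) in 38889 of 45037 probe sets. What sets the others apart is not given in the sources used here. A further division by the vehicle control, named in the methods, is not carried by them. Such ratios give no intensity and no background, so that the number of arrays limits the precision. There were 0 sample columns left unused, and no 2 arrays were identical.

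Log2 ratios of 45037 of 45101 probe sets (64 controls left out) were fitted with limma 3.58.1 in R 4.3.3, with 8 groups and all 24 arrays, 16 residual and 1.35 prior degrees of freedom, and no variance trend, since a mean of ratios is no level. Tests are two-sided. A gene was called at the thresholds of the methods, 0.05 after Benjamini-Hochberg adjustment and 1.5-fold. With 3 against 3 arrays an exact permutation test cannot go below p = 0.10. In a simulation of WT cells with IL-4, RSG against vehicle (45037 probe sets, 50 changed at each size), 12%, 42%, 44% and 62% of 1.5-, 2-, 4- and 8-fold changes were called, and 2 of 82 calls were false.

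All members were named, with up to 6 called related genes per comparison and the 3 genes most like *Angptl4*, *Plin2* and *Mgll*. The members and lists were chosen with earlier results of these data known. The mouse number pairs arrays, since arrays of a number came from 1 animal. Deviations of such arrays from their group means correlated at 0.0106 on average (-0.0229 to 0.0462, 36 pairs), with 0 pairs above 0.1. Alternatives were a block for the mouse, the t-test of the methods, a limma fit of the compared arrays alone, a variance trend, quantile normalization or centring on array medians, probe sets with a median of 1, another probe set per gene, and leaving out each mouse or 2 sets of arrays. Promoters came from RefSeq.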

Additional observations from a re-analysis of the deposited data

Results flagged for a closer look

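The following results were set apart because the IL-4 response of a gene differed between KO and WT cells by a test of the difference itself (limma, 3 arrays per group, KO minus WT, log2). *Mgll* differed by -2.69 (adjusted p = 1.8e-05), with all 3 WT mice up and 2 of 3 KO mice down. *Hilpda* differed by -1.48 (adjusted p = 0.0031) and *Plin2* by -0.68 (adjusted p = 0.017), with all 3 mice up in both genotypes. *Pnpla2* differed by -1.28 (adjusted p = 4.0e-05), with all 3 KO mice down and all 3 WT mice up in its lead probe set. Its second probe set was instead not called in KO cells and called higher in WT cells. *Dgat2* differed by 2.26 (adjusted p = 0.040), with all 3 KO mice up and 1 of 3 WT mice up. The *Dgat2* call was lost in 10 of 15 settings and the *Plin2* call in 5 of 15.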

How the results depend on the processing

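Of 39 calls of a member in a comparison, 16 were kept in every alternative run, and 1 turned its direction, *Pnpla2* for IL-4 in KO cells, at 0.12 (adjusted p = 0.85) with the probe set of the highest mean. With the mouse as a replicate block 38 of 39 calls were kept, and the *Dgat2* genotype difference was lost (2.26, adjusted p = 0.055). The methods' t-test kept 20 of 34 calls and gave 2 of 10 members for IL-4 in KO cells (4 with limma on all arrays), 0 for IL-4 under RSG in KO cells (3 with limma) and 0 in each of the 4 RSG comparisons. With the compared arrays alone 26 of 39 were kept, with 1 member for IL-4 under RSG in KO cells and 0 in each RSG comparison. These fits use fewer arrays. Centring the arrays gave 1 member in place of 0 for the genotype difference in the RSG response with IL-4 (*Angptl4*) and for the IL-4 difference in the RSG response in WT cells (*Hilpda*). Leaving out 1 mouse at a time, the members called numbered 3 to 5 for IL-4 in KO cells, 1 to 4 for IL-4 under RSG in KO cells, 0 to 1 for RSG without IL-4 in KO and in WT cells, 0 to 1 for RSG with IL-4 in KO cells, 1 to 3 for RSG with IL-4 in WT cells and 3 to 5 for the genotype difference in the IL-4 response. A variance trend and the probe sets with a median of 1 kept all 39. For these alternatives the share of all genes called is not given here. A move in the member count therefore cannot be read as particular to the members. The causes of these changes were not tested. The ratios carry no signal over background, and with 3 arrays per group a member not called is not shown to be unchanged. In the simulation of RSG against vehicle in WT cells with IL-4, 12% of 1.5-fold changes were called. A call itself needs a change of 1.5-fold, so that a true change of that size can miss it at any precision. That simulation covered this comparison alone.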
